A study of Drosophila melanogaster with 15 samples.

Results

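The CPR genes encode cuticle proteins with the Rebers and Riddiford motif, the commonest chitin-binding motif of arthropod cuticle. Every gene whose annotated symbol is Cpr followed by a map number was taken, with 1 probe set per gene, the one with the highest mean over all arrays. This gave 66 CPR genes of 11982 genes measured. RefSeq's gene table lists 70 such genes. Cpr57A, Cpr65Ax1 and Cpr65Ax2 were seen only by probe sets shared with another gene, and no probe set carried the symbol Cpr65Ay. Of the 66 genes, 4 lie on the X chromosome, 5 on arm 2L, 20 on 2R, 32 on 3L and 5 on 3R. Symbols that share a number and a capital letter were taken as 1 genomic cluster, and 46 genes fell into 12 clusters with 2 or more measured members.

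RNA came from wing imaginal discs of Drosophila melanogaster larvae in the third instar, raised at 25C. The knockdown larvae were w- with elav-GAL80/+ and, over a + chromosome, both the Rn-GAL4 driver and UAS Avl RNAi. They were sampled 92, 116 and 168 h after egg deposition and labelled neoplastic. The control larvae were w- with elav-GAL80/+ and Rn-GAL4/+, without the RNAi transgene. They were sampled at 92 and 116 h and labelled wild type. Each of the 5 groups had 3 arrays from separate samples, and p-values measure the spread between these samples. No control of 168 h was analysed, so age and genotype differ together in any comparison of the oldest avl-RNAi discs with controls. The avl gene, now Syx7, encodes an early endosomal syntaxin, and it had no probe set of its own here, so the knockdown itself could not be read. The rn driver is active in the wing pouch, while whole discs were collected, and GAL80 under elav control, which blocks GAL4 in neurons, was carried by both genotypes.

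Insect cuticle is layered from chitin fibres and proteins that the epidermis secretes at its apical face. Pulses of the steroid hormone ecdysone time each moult, and different cuticle proteins are made before, during and after a pulse, so members of the CPR family are known for sharply timed expression. The wing disc is an epithelium that secretes no larval exoskeleton but makes pupal and adult cuticle after pupariation. Neighbouring CPR genes often arose by duplication, and closely similar copies can share signal on a probe set.

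Values are the deposited log2 signals, in which 1 unit is a 2-fold change. A gene was called at an adjusted p under 0.05 in limma, with Benjamini-Hochberg adjustment over all 11982 genes of a comparison, and only called genes are said to have risen or fallen. Differences are given in log2 units ± standard error for 3 arrays per group. Correlations between 2 arrays of 1 group ran between 0.994 and 0.998, and between arrays of different groups they ran between 0.970 and 0.996. The 18 measured markers of wing disc epithelium averaged 7.89 to 8.76 over the 15 arrays, and none of the 18 lay below its array's median over genes throughout. Gut markers set 2 control arrays apart. Their mean was 4.83 in control replicate 3 at 92 h, against 6.13 in both other arrays, and 5.98 in control replicate 2 at 116 h, against 4.78 and 4.68.

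Most CPR genes read below their array's median, a description only, since the brightness of a probe set also depends on its sequence. In every array 40 of the 66 lay below the array's median over genes, which ranged from 5.76 to 6.0, while 6 lay above it in every array and 20 crossed it. At least 1 of 8 comparisons called 38 CPR genes, 57.6%, against 58.5% of all genes. A called change of at least 2-fold was seen in 21 of them, 31.8% of the 66, against 7.76% of all genes. Of the 28 that were never called, 26 lay below the median in every array. Called genes that did so too were Cpr23B, Cpr30F, Cpr35B, Cpr47Ee, Cpr49Ae, Cpr62Bb, Cpr72Ea, Cpr72Ec, Cpr76Bc, Cpr76Bd, Cpr78Ca, Cpr92A, Cpr92F and Cpr97Ea. Those never called were Cpr5C, Cpr11B, Cpr30B, Cpr47Ea, Cpr47Ed, Cpr47Ef, Cpr49Aa, Cpr49Ab, Cpr49Ad, Cpr50Ca, Cpr50Cb, Cpr56F, Cpr62Ba, Cpr62Bc, Cpr64Ab, Cpr65Au, Cpr65Av, Cpr65Az, Cpr65Ea, Cpr65Eb, Cpr66Cb, Cpr67Fb, Cpr72Eb, Cpr73D, Cpr76Ba, Cpr76Bb, Cpr78Cb and Cpr100A. The heat map of the called genes sets the arrays of each gene side by side.

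**Figure D1:**
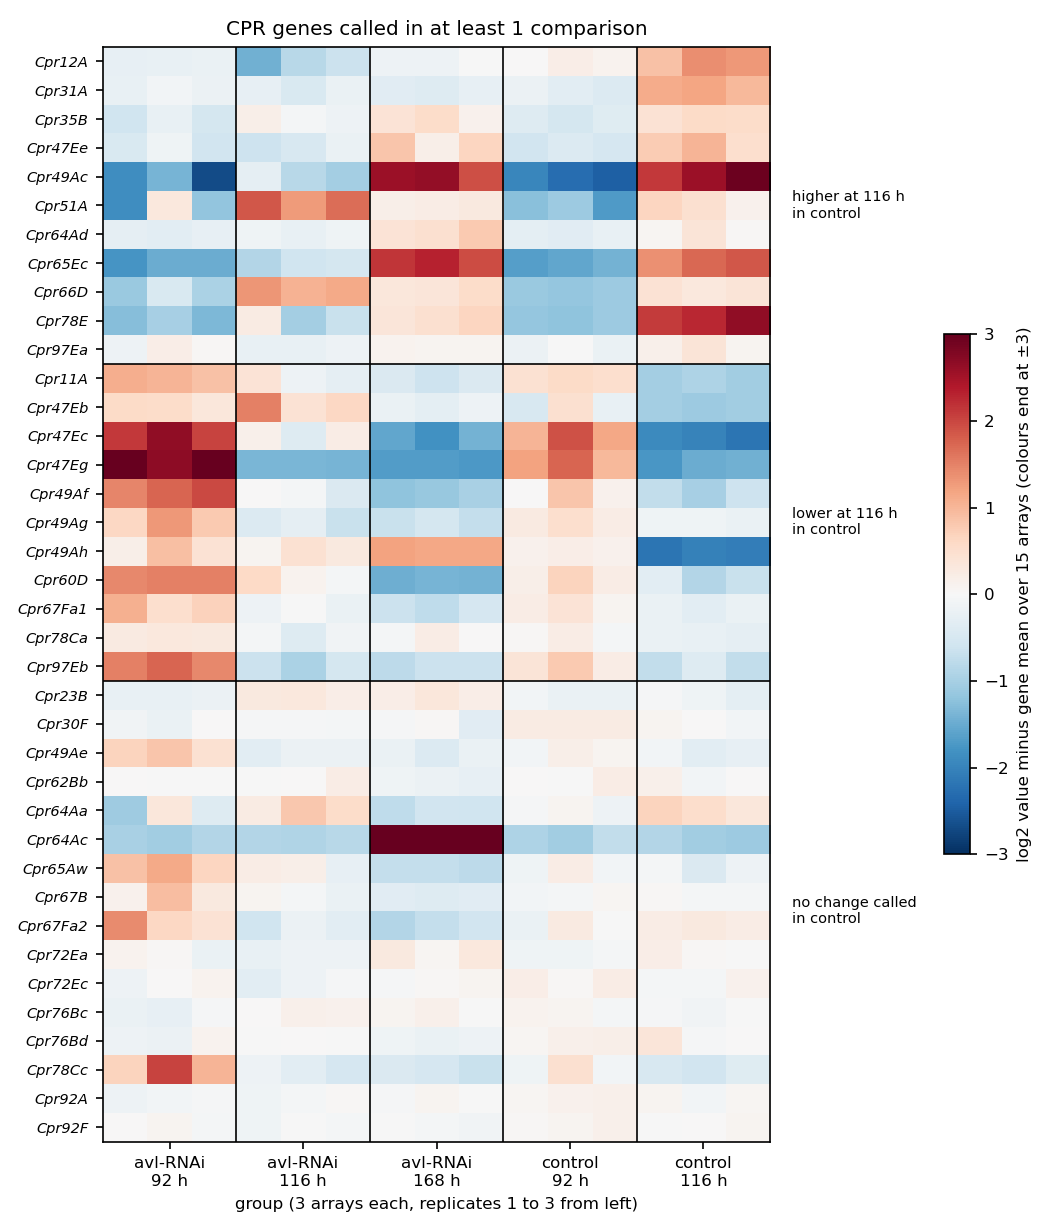
Heat map of the 38 CPR genes called in at least 1 comparison, each cell being 1 array's log2 value minus the gene's mean over the 15 arrays, red above and blue below, with colours ending at ±3. Rows are grouped into 11 genes higher and 11 lower at 116 h than at 92 h in control discs and 16 with no change called there, and the 3 avl-RNAi arrays of 168 h stand out for Cpr64Ac.

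At 92 h, 12 CPR genes were called between avl-RNAi and control discs, 18.2% of the 66, against 4.48% of all genes. Of these, 11 were higher and 1 lower, 16.7% and 1.52% of the 66, against 2.44% and 2.04% of all genes. At 116 h, 20 were called, 30.3%, near the 31.7% of all genes, with 9 higher and 11 lower, 13.6% and 16.7%, against 12.6% and 19.1%. The change of the knockdown difference between these ages was called for 18, 27.3%, against 18.2%. It was higher for 5 and lower for 13, 7.58% and 19.7%, against 7.62% and 10.5% of all genes. The median difference of the 66 was 0.006 at 92 h and 0.003 at 116 h, against -0.009 and -0.017 over all genes.

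Ageing changed similar numbers. Between 92 and 116 h, 24 CPR genes changed in avl-RNAi discs, 36.4%, against 35.4% of all genes, of which 9 rose and 15 fell, 13.6% and 22.7%, against 14.8% and 20.6%. In control discs 22 changed over the same interval, 33.3%, against 27.0%, and 11 rose and 11 fell, 16.7% each, against 13.2% and 13.8%. Between 116 and 168 h in avl-RNAi discs 22 changed, 33.3%, against 27.0%, and 11 rose and 11 fell, 16.7% each, against 15.5% and 11.5%. Set against control discs of 116 h, avl-RNAi discs of 168 h differed in 18, 27.3%, against 25.6%, with 8 higher and 10 lower, 12.1% and 15.2%, against 12% and 13.7%. Set against control discs of 92 h, avl-RNAi discs of 116 h differed in 20, 30.3%, against 35.6%, with 8 higher and 12 lower, 12.1% and 18.2%, against 15.1% and 20.5%. Apart from the rises at 92 h and the falls of the genotype by age term, most of these shares lie near those of all genes and say little about the family.

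Large changes took a greater share of CPR genes than of all genes. Called changes of at least 2-fold made up 7.58% of CPR genes upward and none downward at 92 h, against 0.317% and 0.0918% of all genes. At 116 h they made up 6.06% upward and 9.09% downward, against 2.55% and 1.36%. For the genotype by age term they made up 4.55% and 13.6%, against 1.84% and 1.28%. With age up to 116 h they made up 4.55% and 13.6% in avl-RNAi discs, against 2.04% and 1.08%, and 12.1% and 9.09% in control discs, against 1.82% and 1.29%. After 116 h in avl-RNAi discs they made up 4.55% and 7.58%, against 1.39% and 1.69%. Between avl-RNAi discs of 168 h and control discs of 116 h they made up 3.03% and 6.06%, against 1.72% and 0.734%. Between avl-RNAi discs of 116 h and control discs of 92 h they made up 4.55% and 6.06%, against 2.44% and 0.676%. The counts behind these shares are small, between 0 and 9 genes in each direction.

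**Figure D2:**
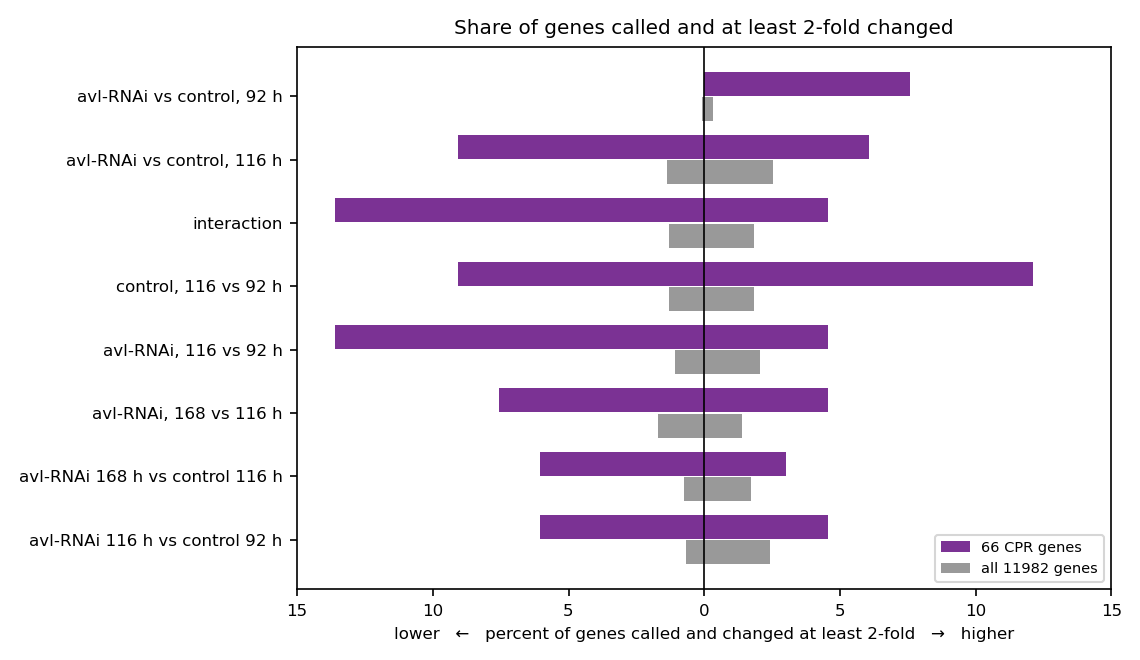
Percent of genes called and changed at least 2-fold, lower to the left and higher to the right, for the 66 CPR genes in purple and all 11982 genes in grey, in each of 8 comparisons. The purple bar is longer than the grey one everywhere except for falls at 92 h, where it is 0 against 0.0918%.

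At 92 h the 11 CPR genes that were higher in avl-RNAi discs were Cpr47Ec, Cpr47Eg, Cpr49Ae, Cpr49Af, Cpr49Ag, Cpr60D, Cpr65Aw, Cpr67Fa1, Cpr67Fa2, Cpr78Cc and Cpr97Eb. Cpr30F, named here after its values were seen, was the 1 lower gene, at -0.34 ± 0.085, and lost its call without avl-RNAi replicate 1 or 2 or any 1 control array (adjusted p up to 0.134). Cpr47Eg differed most. Its arrays of 92 h read 9.87, 9.12 and 10.26 in avl-RNAi discs, against 7.65, 8.17 and 7.41 in control discs. By 116 h it read 5.07, 5.05 and 5.04 in avl-RNAi discs, against 4.69, 4.95 and 4.99 in control discs, and at 168 h 4.76, 4.75 and 4.71. The avl-RNAi arrays lay wholly above the control arrays at both ages, by 2.01 ± 0.23 at 92 h (limma adjusted p = 0.000196, 4.02-fold) and by an uncalled 0.17 ± 0.23 at 116 h. With age it fell by 4.70 ± 0.23 in avl-RNAi discs, 25.9-fold, and by 2.86 ± 0.23 in control discs.

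Cpr97Eb had the same course at a smaller scale. It read 6.82, 7.04 and 6.75 in avl-RNAi discs of 92 h, against 5.70, 6.08 and 5.52 in control discs, and by 116 h it read 4.66, 4.35 and 4.78, against 4.56, 4.91 and 4.57. The groups were apart at 92 h, by 1.10 ± 0.15 (adjusted p = 0.000649), and overlapped at 116 h. Cpr49Af read 6.64, 6.92 and 7.16 in avl-RNAi discs of 92 h, against 5.18, 6.01 and 5.29 in control discs, a difference of 1.41 ± 0.20. At 116 h it read 5.18, 5.11 and 4.75, against 4.43, 4.17 and 4.54, a difference of 0.63 ± 0.20, and at 168 h it had reached 3.97, 4.03 and 4.20. Cpr60D read 6.53, 6.58 and 6.58 at 92 h in avl-RNAi discs, against 5.25, 5.75 and 5.29 in control discs. At 116 h Cpr60D read 5.67, 5.18 and 5.02, against 4.76, 4.19 and 4.41, and at 168 h 3.61, 3.68 and 3.66. For Cpr49Af and Cpr60D, then, the avl-RNAi arrays lay above the control arrays at both ages while both genotypes declined, and Cpr60D differed by 1.13 ± 0.17 at 92 h and 0.84 ± 0.17 at 116 h. The Cpr49Af call at 116 h was lost without avl-RNAi replicate 1 or 2 or control replicate 2, with an adjusted p of up to 0.0975.

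Cpr49Ae and Cpr65Aw were higher by 0.60 ± 0.10 and 0.89 ± 0.15 and were called without each array in turn, though Cpr49Ae lay below the array median in every array. The calls of Cpr47Ec, Cpr49Ag, Cpr67Fa1, Cpr67Fa2 and Cpr78Cc were each lost without at least 2 single arrays. Cpr78Cc read 5.65, 7.01 and 6.0 in avl-RNAi discs, against 4.85, 5.45 and 4.90 in control discs, a difference of 1.15 ± 0.26 that rests in part on replicate 2. Its call was lost without control replicate 1 or 3 (adjusted p up to 0.0964). The other 4 differences lay between 0.52 ± 0.12 for Cpr67Fa1 and 0.91 ± 0.23 for Cpr47Ec. They were lost without control replicate 1 or 3, without avl-RNAi replicate 1 for each but Cpr49Ag, without replicate 2 for each but Cpr67Fa1, and without replicate 3 for Cpr49Ag and Cpr67Fa1 (adjusted p up to 0.162). Leaving out control replicate 1 or control replicate 3 reduced the number of CPR genes called at 92 h to 6, with 2.4% and 2.42% of all genes called, against 12 with all arrays. Cpr67Fa1 and Cpr67Fa2 are near copies with a further probe set in common, so their separate values are uncertain.

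Markers of other larval tissues differed in the same comparison. The 13 measured muscle genes of 17 listed, 2 of them below the array median throughout, averaged 8.26 to 8.72 in avl-RNAi discs of 92 h, against 7.64 to 7.99 in control discs. The 8 measured tracheal genes of 10 listed, 1 of them (btl) below the median throughout, averaged 9.33 to 9.44, against 9.15 to 9.32. Among these tracheal genes, serp, verm, Gasp, obst-A and pio are also counted further on as genes of cuticle, chitin or apical matrix, so they do not mark trachea alone. The 14 haemocyte genes, 3 of them below the median throughout, averaged 7.33 to 7.46, against 6.88 to 7.32, so these 3 lists did not overlap between genotypes. The haemocyte ranges nearly met, however, and the members were not uniform. NimC1, crq and He averaged lower in avl-RNAi discs, at 4.35, 7.56 and 5.79, against 4.91, 7.72 and 5.91, and the other haemocyte genes higher. Gut markers overlapped, at 5.56 to 6.24, against 4.83 to 6.13, with 16 of the 25 measured genes below the median throughout, and so did fat body markers, at 7.79 to 9.29, against 8.22 to 8.73. With the gut, muscle and fat body means as covariates, all 12 genes kept their sign, and Cpr47Eg and Cpr97Eb were still called, while the median standard error over all genes was 0.11, against 0.074 without the covariates. The part of these tissues in the other 10 differences was not tested further, and that of trachea and haemocytes, which were no covariates, was not tested. In whole discs, more cells of a type and more RNA per cell cannot be told apart.

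The CPR genes that rose between 92 and 116 h in control discs were Cpr12A, Cpr31A, Cpr35B, Cpr47Ee, Cpr49Ac, Cpr51A, Cpr64Ad, Cpr65Ec, Cpr66D, Cpr78E and Cpr97Ea. The control arrays of 116 h enter both this ageing difference and the knockdown difference at 116 h, so the values are given side by side and are not independent. Tissue markers moved over the same interval. In control discs muscle genes averaged 6.44 to 7.09 at 116 h, against 7.64 to 7.99 at 92 h, salivary gland genes 5.81 to 6.11, against 4.54 to 4.66, and wing disc epithelium genes 8.67 to 8.76, against 8.27 to 8.35, with the other 5 lists overlapping. In avl-RNAi discs muscle genes averaged 7.31 to 7.81 at 116 h, against 8.26 to 8.72 at 92 h, and gut genes 4.90 to 5.02, against 5.56 to 6.24. Tracheal genes there averaged 9.59 to 9.73, against 9.33 to 9.44, and salivary gland genes 4.97 to 6.27, against 4.4 to 4.55. With the gut, muscle and fat body means as covariates, 9 of the 22 calls of control discs were kept, beside 4.34% of all genes, and the median standard error was 0.15, against 0.074. The 9 were Cpr31A, Cpr35B, Cpr49Ac, Cpr65Ec, Cpr66D and Cpr78E, higher, and Cpr47Ec, Cpr47Eg and Cpr49Ah, lower. The calls of Cpr12A, Cpr47Ee, Cpr51A, Cpr64Ad and Cpr97Ea among the risers, and of Cpr11A, Cpr47Eb, Cpr49Af, Cpr49Ag, Cpr60D, Cpr67Fa1, Cpr78Ca and Cpr97Eb among those that fell, were lost, all with their sign kept. In avl-RNAi discs 14 of the 24 calls were kept, beside 17.4% of all genes, and those of Cpr11A, Cpr12A, Cpr35B, Cpr49Ac, Cpr51A, Cpr64Aa, Cpr67B, Cpr76Bc, Cpr78Ca and Cpr78E were lost. The part of salivary gland and trachea was not tested.

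Cpr49Ac rose most in control discs. At 92 h it read 6.51, 6.98 and 5.67 in avl-RNAi discs, against 6.41, 6.07 and 5.91 in control discs. By 116 h it read 8.10, 7.52 and 7.34 in avl-RNAi discs, against 10.49, 10.94 and 11.31 in control discs. At 168 h the avl-RNAi arrays read 10.92, 10.99 and 10.29. Its rise of 1.27 in avl-RNAi discs between 92 and 116 h was called (limma adjusted p = 0.00637). The genotypes overlapped at 92 h, stood apart at 116 h by -3.26 ± 0.32 (adjusted p = 3.35e-06, 9.58-fold lower in avl-RNAi), and avl-RNAi discs of 168 h differed from control discs of 116 h by an uncalled -0.18 ± 0.32.

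Cpr65Ec was also lower in avl-RNAi discs at 116 h and rose there both before and after that age. Its rise in avl-RNAi discs was 0.91 between 92 and 116 h (limma adjusted p = 0.000126) and 2.81 between 116 and 168 h. It read 4.09, 4.38 and 4.38 in avl-RNAi discs of 92 h, against 4.21, 4.31 and 4.44 in control discs, and 4.98, 5.26 and 5.34 at 116 h, against 7.24, 7.59 and 7.72. At 168 h it read 8.01, 8.17 and 7.83. Its 116 h arrays did not overlap, at -2.32 ± 0.14 (adjusted p = 2.48e-08), and its avl-RNAi arrays of 168 h all lay above the control arrays of 116 h, at 0.48 ± 0.14. That last call was lost without avl-RNAi replicate 1 or 2 of 168 h or control replicate 1 (adjusted p up to 0.0843). Cpr47Ee lay below the array median in every array. It read 3.83, 3.96 and 4.25 in avl-RNAi discs of 116 h, against 5.22, 5.46 and 4.94 in control discs, and 5.27, 4.63 and 5.08 in avl-RNAi discs of 168 h, with -1.20 ± 0.17 between genotypes at 116 h. Between avl-RNAi discs of 168 h and control discs of 116 h, Cpr47Ee differed by an uncalled -0.22 ± 0.17.

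Cpr78E, Cpr12A and Cpr31A stayed lower in the oldest avl-RNAi discs. Cpr78E read 6.14, 4.87 and 5.23 in avl-RNAi discs of 116 h, against 7.98, 8.16 and 8.55 in control discs, and 6.25, 6.36 and 6.53 at 168 h. At 92 h it read 4.62, 4.90 and 4.55, against 4.73, 4.69 and 4.79. The difference was -2.82 ± 0.24 at 116 h (7.06-fold lower, adjusted p = 1.03e-06), and avl-RNAi discs of 168 h differed from control discs of 116 h by -1.85 ± 0.24. Its rise of 0.72 ± 0.24 in avl-RNAi discs by 116 h was lost without replicate 1 of that group, which read highest, or without avl-RNAi replicate 1 or 3 of 92 h (adjusted p up to 0.113).

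Cpr12A took a course of its own among the rising genes, since it fell in avl-RNAi discs while it rose in control discs. It read 8.89, 8.92 and 8.95 in avl-RNAi discs of 92 h, against 9.16, 9.35 and 9.24 in control discs. At 116 h it read 7.69, 8.32 and 8.50, against 10.02, 10.53 and 10.43, and at 168 h 9.0, 8.98 and 9.13. It fell by 0.75 ± 0.17 in avl-RNAi discs and rose by 1.08 ± 0.17 in control discs, and the knockdown difference of 116 h was -2.16 ± 0.17 (4.47-fold, adjusted p = 4.22e-07). Cpr31A read 4.85, 4.65 and 4.91 in avl-RNAi discs of 116 h, against 6.21, 6.28 and 6.08 in control discs, and the other 3 groups lay between 4.69 and 5.02. It was thus high in control discs of 116 h alone, with a knockdown difference of -1.39 ± 0.081 at 116 h and -1.41 ± 0.081 between avl-RNAi discs of 168 h and those controls. For Cpr12A the difference between those groups was -1.29 ± 0.17.

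Cpr35B, Cpr64Ad and Cpr97Ea changed by less than 2-fold and were lower in avl-RNAi discs at 116 h, by -0.54 ± 0.12, -0.32 ± 0.097 and -0.40 ± 0.091. For Cpr64Ad that call was lost without avl-RNAi replicate 2 or control replicate 2, with an adjusted p of up to 0.0999. Cpr51A and Cpr66D went the other way at that age. Cpr51A read 11.25, 10.67 and 11.05 in avl-RNAi discs of 116 h, against 10.03, 9.86 and 9.51 in control discs, with 9.57, 9.60 and 9.68 at 168 h. At 92 h it read 7.53, 9.70 and 8.21, against 8.13, 8.29 and 7.68. Cpr66D read 9.53, 9.25 and 9.33 in avl-RNAi discs of 116 h, against 8.64, 8.51 and 8.58 in control discs, and 8.54, 8.56 and 8.76 at 168 h. At 116 h all avl-RNAi arrays lay above all control arrays for both genes, by 1.19 ± 0.39 for Cpr51A (adjusted p = 0.0321) and 0.80 ± 0.13 for Cpr66D (adjusted p = 0.00034). The Cpr51A call was lost without avl-RNAi replicate 1 or 3 or control replicate 2 or 3, with an adjusted p of up to 0.108. Both genes rose in both genotypes between 92 and 116 h, by 2.51 ± 0.39 in avl-RNAi and 1.77 ± 0.39 in control discs for Cpr51A, and by 2.02 ± 0.13 and 1.5 ± 0.13 for Cpr66D.

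**Figure D3:**
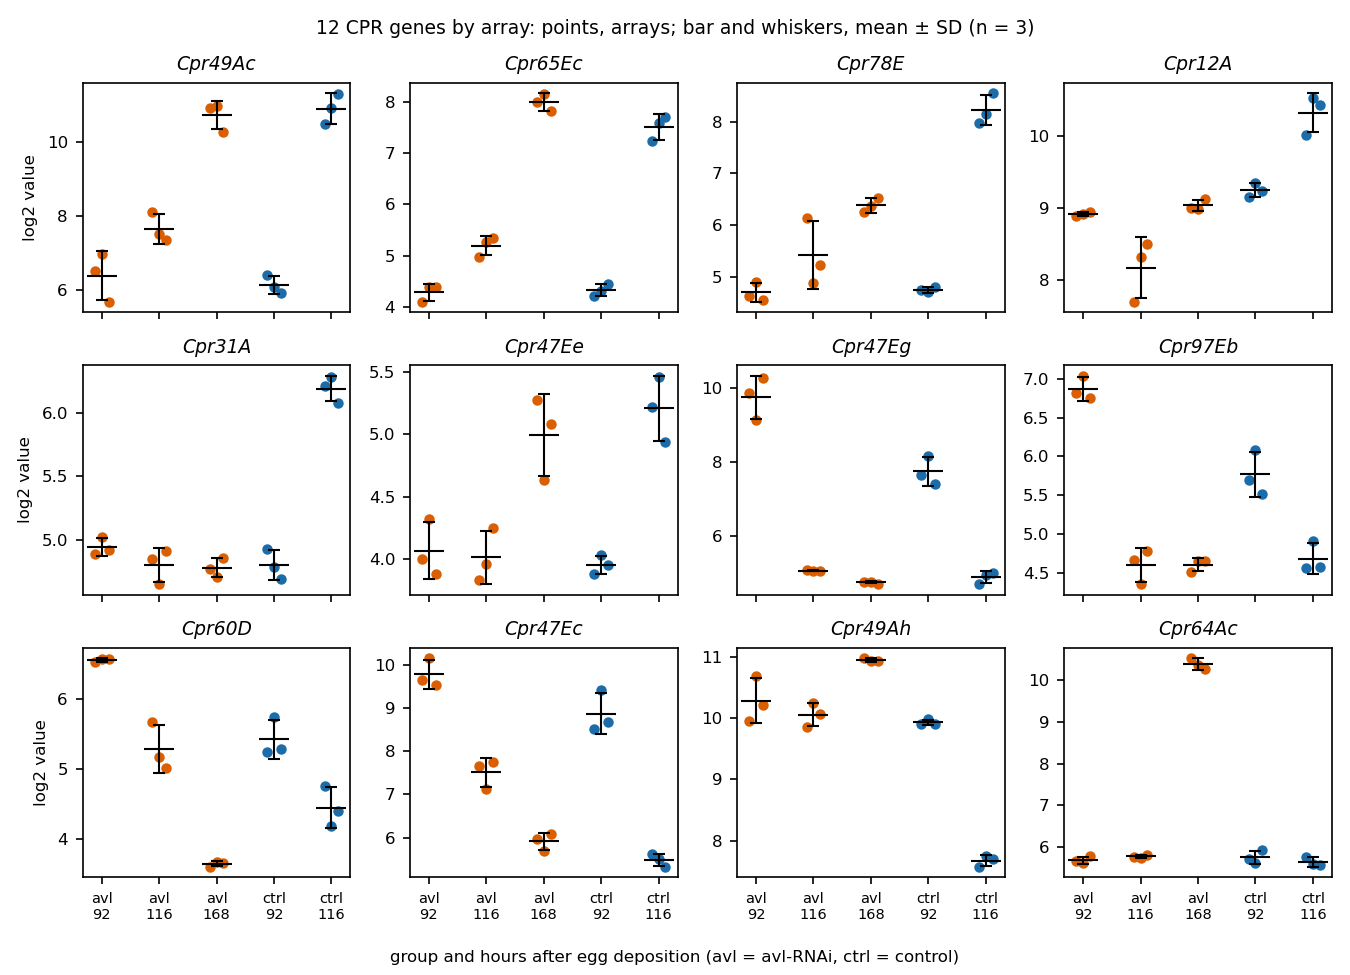
Log2 values of 12 CPR genes, with 1 point per array, avl-RNAi in orange and control in blue, and bars and whiskers for the mean ± SD of 3 arrays. The first 6 genes were lower in avl-RNAi discs at 116 h, the next 3 higher at 92 h, Cpr47Ec and Cpr49Ah higher at 116 h, and Cpr64Ac read 10.54, 10.37 and 10.27 in avl-RNAi discs of 168 h.

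The CPR genes that fell between 92 and 116 h in control discs were Cpr11A, Cpr47Eb, Cpr47Ec, Cpr47Eg, Cpr49Af, Cpr49Ag, Cpr49Ah, Cpr60D, Cpr67Fa1, Cpr78Ca and Cpr97Eb. Cpr47Ec read 9.64, 10.16 and 9.54 in avl-RNAi discs of 92 h, against 8.52, 9.41 and 8.68 in control discs. By 116 h it read 7.66, 7.13 and 7.74, against 5.61, 5.51 and 5.33, and at 168 h 5.96, 5.69 and 6.09. It fell by 2.27 ± 0.23 in avl-RNAi discs and by 3.39 ± 0.23 in control discs, and the knockdown difference at 116 h was 2.03 ± 0.23 (4.08-fold, adjusted p = 1.35e-05). Its difference of 0.91 ± 0.23 at 92 h was not called without avl-RNAi replicate 1 or 2 or control replicate 1 or 3, with an adjusted p of up to 0.162.

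Cpr49Ah took another course, with no called change in avl-RNAi discs before 168 h. It read 9.95, 10.68 and 10.22 in avl-RNAi discs of 92 h, against 9.91, 9.98 and 9.90 in control discs. At 116 h it read 9.86, 10.24 and 10.06 in avl-RNAi discs, against 7.58, 7.75 and 7.70 in control discs, and at 168 h 10.98, 10.93 and 10.93. The control arrays of 116 h thus lay below all others, with a knockdown difference of 2.38 ± 0.14 (5.20-fold, adjusted p = 2.59e-08), and avl-RNAi discs of 168 h lay 3.27 ± 0.14 above them. Between 92 and 116 h the avl-RNAi difference was an uncalled -0.23 ± 0.14, while it fell by 2.26 ± 0.14 in control discs.

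Cpr47Eb and Cpr11A were also higher at 116 h in avl-RNAi discs. Cpr47Eb read 7.63, 6.56 and 6.74, against 5.09, 5.04 and 5.07 in control discs, a difference of 1.91 ± 0.25. Cpr11A read 5.90, 5.34 and 5.22, against 4.49, 4.57 and 4.45, a difference of 0.98 ± 0.13. At 92 h Cpr11A read 6.60, 6.51 and 6.39, against 5.95, 6.07 and 6.0, an uncalled difference of 0.50 ± 0.13. In both genes the avl-RNAi arrays of 116 h lay wholly above the controls, and replicate 1 was the highest. Cpr49Ag read 10.09, 10.76 and 10.25 in avl-RNAi discs of 92 h, against 9.73, 9.97 and 9.67 in control discs, and 9.06, 9.18 and 8.78 at 116 h, against 9.33, 9.33 and 9.25. Its fall of 1.36 ± 0.15 in avl-RNAi discs by 116 h was called, and its fall of 0.49 ± 0.15 in control discs was lost without control replicate 2 of 92 h or any 1 control array of 116 h (adjusted p up to 0.102).

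Other tissues' markers differed at 116 h too. Muscle genes averaged 7.31 to 7.81 in avl-RNAi discs, against 6.44 to 7.09 in control discs, and wing disc epithelium genes 7.89 to 8.23, against 8.67 to 8.76. Tracheal genes averaged 9.59 to 9.73, against 9.31 to 9.43, and the 6 measured neuron genes of 7 listed, 5 of them below the array median throughout, 4.96 to 4.99, against 4.83 to 4.92. Of the tracheal genes, btl and pio averaged lower in avl-RNAi discs, at 5.20 and 10.83, against 5.55 and 11.17, and the others higher. The next lists overlapped. Haemocyte genes averaged 6.83 to 8.10, against 6.96 to 7.30, and gut genes 4.90 to 5.02, against 4.68 to 5.98. The 8 salivary gland genes, 3 of them below the array median throughout, averaged 4.97 to 6.27, against 5.81 to 6.11, and fat body genes 8.56 to 10.13, against 7.72 to 9.77. With the gut, muscle and fat body means as covariates, 8 of the 20 CPR genes called at 116 h were still called and all 20 kept their sign, with a median standard error of 0.14, against 0.074. The 8 were Cpr47Ec and Cpr49Ah, higher, and Cpr12A, Cpr31A, Cpr47Ee, Cpr49Ac, Cpr65Ec and Cpr78E, lower. For the other 12 the part of these tissues was not tested further, and that of trachea, no covariate, was not tested for any.

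The genotype by age term tested whether the knockdown difference changed between 92 and 116 h. It was largest in size for Cpr49Ac, at -3.52 ± 0.45 (adjusted p = 0.000107), Cpr78E, at -2.77 ± 0.34, and Cpr65Ec, at -2.29 ± 0.19, whose knockdown differences of 92 h were near 0. It was -1.83 ± 0.33 for Cpr47Eg and -1.19 ± 0.21 for Cpr97Eb, whose knockdown differences were called at 92 h and not at 116 h. It was 2.02 ± 0.20 for Cpr49Ah and 1.35 ± 0.35 for Cpr47Eb, whose differences were larger at 116 h. Cpr67Fa2 read 7.27, 6.46 and 6.29 in avl-RNAi discs of 92 h, against 5.65, 6.11 and 5.83 in control discs, and 5.25, 5.66 and 5.54 at 116 h, against 6.07, 6.14 and 6.06. Its avl-RNAi arrays lay above the controls at 92 h, by 0.81 ± 0.20, and below them at 116 h, by -0.61 ± 0.20, with a term of -1.41 ± 0.29 (adjusted p = 0.00376). The call of 92 h was lost without avl-RNAi replicate 1 or 2 or control replicate 1 or 3, and that of 116 h without avl-RNAi replicate 1 or 3 or any 1 control array, with adjusted p of up to 0.155 and 0.142, while the term stayed called without each array. No term was called for Cpr60D, at -0.29 ± 0.24, or Cpr49Af, at -0.78 ± 0.28. The knockdown differences at both ages share no array, and 3 genes were higher at both, Cpr47Ec, Cpr49Af and Cpr60D. These are 27.3% of the 11 higher at 92 h and 33.3% of the 9 higher at 116 h, against 59.9% and 11.6% for all genes.

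**Figure D4:**
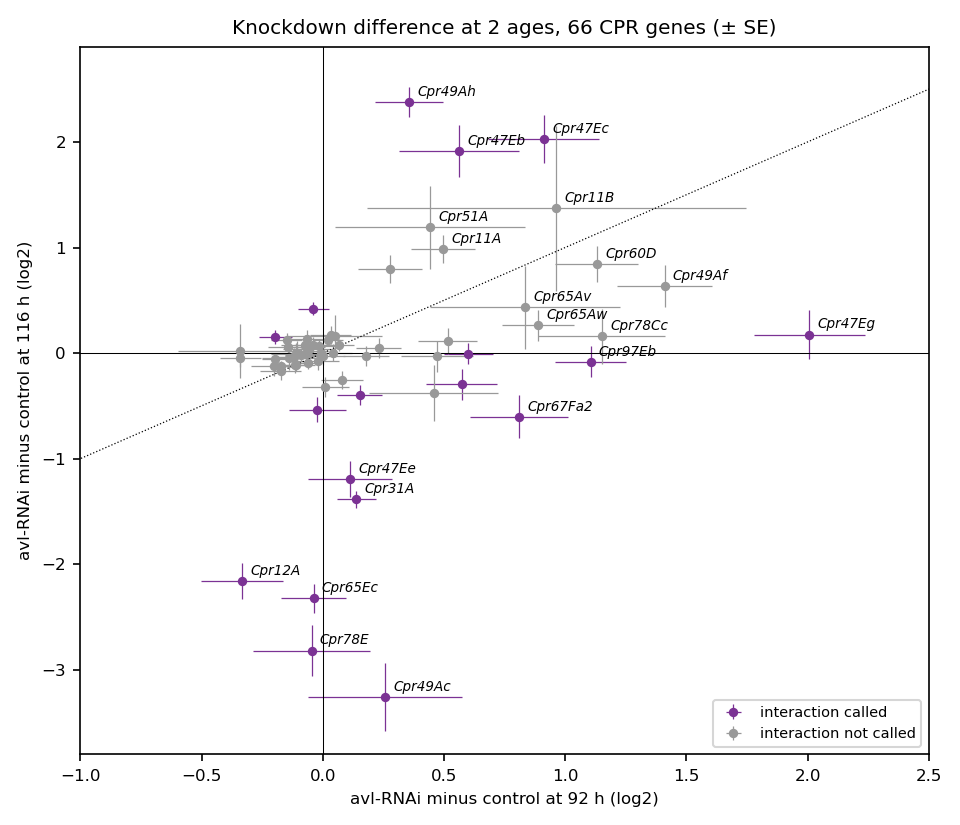
Difference between avl-RNAi and control discs at 92 h (horizontal) and at 116 h (vertical) in log2 units for the 66 CPR genes, with whiskers of 1 standard error, purple where the genotype by age term was called (18 genes). The dotted line marks equal differences, Cpr47Eg lies far right near 0 on the vertical axis, and Cpr49Ac, Cpr78E, Cpr65Ec and Cpr12A lie low near 0 on the horizontal axis.

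The oldest avl-RNAi discs could be set against the control course without shared arrays. Of the 11 CPR genes that rose in control discs by 116 h, 8 rose between 116 and 168 h in avl-RNAi discs, which is 72.7% of either list, against 42.9% and 36.7% for all genes. These were Cpr12A, Cpr35B, Cpr47Ee, Cpr49Ac, Cpr64Ad, Cpr65Ec, Cpr78E and Cpr97Ea. Cpr51A and Cpr66D fell in that interval, by 1.38 ± 0.39 and 0.75 ± 0.13. Without avl-RNAi replicate 1 of 116 h or replicate 1 of 168 h, the fall of Cpr51A was not called (adjusted p up to 0.069). The late rise of Cpr35B was lost without replicate 2 or 3 of 116 h or 1 or 2 of 168 h (up to 0.137), and that of Cpr97Ea without replicate 1 or 2 of 116 h or any 1 of 168 h (up to 0.0872). Of the 11 that fell in control discs, 6 fell between 116 and 168 h in avl-RNAi discs, 54.5% of either list, against 27.3% and 32.5% for all genes. Those 6 were Cpr11A, Cpr47Eb, Cpr47Ec, Cpr49Af, Cpr60D and Cpr67Fa1, and Cpr49Ah, which rose by 0.89 ± 0.14, went the other way. Without replicate 2 of 168 h the fall of Cpr11A was not called (adjusted p = 0.0601). Over the earlier interval, 6 of the 11 risers in control discs rose in avl-RNAi discs, 54.5% of them and 66.7% of the 9 avl-RNAi risers, against 47.9% and 42.8% for all genes. The 6 were Cpr35B, Cpr49Ac, Cpr51A, Cpr65Ec, Cpr66D and Cpr78E. Of the 11 that fell in control discs 9 fell in avl-RNAi discs, 81.8% of them and 60% of the 15, against 66.3% and 44.1%.

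Markers moved over the late interval as well. Muscle genes averaged 5.82 to 6.12 at 168 h, against 7.31 to 7.81 at 116 h in avl-RNAi discs, and wing disc epithelium genes 8.48 to 8.55, against 7.89 to 8.23. Gut genes averaged 4.51 to 4.61, against 4.90 to 5.02, fat body genes 7.47 to 8.32, against 8.56 to 10.13, and tracheal genes 9.46 to 9.51, against 9.59 to 9.73. None of these 5 lists overlapped between the ages, while haemocyte, salivary gland and neuron genes did. The overlapping haemocyte mean hides opposite courses. Hml, Nplp2, PPO1, PPO2, lz and vkg averaged lower at 168 h than at 116 h, and the other haemocyte genes higher. Nplp2 averaged 10.23 at 116 h and 5.71 at 168 h, and PPO1 9.06 and 6.37, while eater averaged 4.95 and 6.61, and He 5.88 and 7.22. The fat body mean, which is also a covariate, holds opposite courses. In it Fbp1 averaged 7.07 at 116 h and 8.96 at 168 h, while Lsp2, Fbp2, apolpp and Lpin were lower at 168 h. In control discs Fbp1 averaged 4.73 at 92 h and 9.43 at 116 h. With the 3 tissue means as covariates only Cpr64Ac and Cpr65Ec of the 22 CPR genes were still called between these ages, all 22 kept their sign, and the median standard error was 0.22, against 0.074. The part of the other tissues in the remaining 20 was not tested further. Against control discs of 116 h, muscle genes averaged lower at 168 h without overlap, at 5.82 to 6.12, against 6.44 to 7.09. So did gut, salivary gland and wing disc epithelium genes, while tracheal and neuron genes averaged higher. With the covariates, Cpr23B, Cpr49Ah and Cpr64Ac, higher, and Cpr12A, Cpr31A and Cpr78E, lower, were still called there. The other calls, that of Cpr65Ec among them, were lost with their sign kept.

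The 47E cluster on arm 2R held 7 measured genes, of which Cpr47Eb, Cpr47Ec, Cpr47Ee and Cpr47Eg were called, all at least 2-fold. Over all genes 58.5% were called in at least 1 of the 8 comparisons, and 7.76% at least 2-fold. Counts of called genes in so small a cluster therefore say little about it. Cpr47Eb, Cpr47Ec and Cpr47Eg fell with age in control discs, and Cpr47Ee, which lies between Cpr47Ec and Cpr47Eg, rose by 1.25 ± 0.17. The knockdown difference was called for Cpr47Eg at 92 h, for Cpr47Ec at both ages and for Cpr47Eb at 116 h, all higher, and for Cpr47Ee at 116 h, lower at -1.20 ± 0.17. At 116 h it was 0.17 ± 0.23 for Cpr47Eg, 2.03 ± 0.23 for Cpr47Ec and 1.91 ± 0.25 for Cpr47Eb. Cpr47Ea, Cpr47Ed and Cpr47Ef were never called and stayed within 4.11 to 4.37, 4.05 to 4.39 and 5.11 to 5.43. The gene CG13223, which lies inside the cluster and is no CPR gene, averaged 3.43 to 3.51 in the 5 groups and was not called at 92 or 116 h.

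The 49A cluster on arm 2R held 8 measured genes, of which 5 were called, beside 58.5% of all genes. It showed opposite time courses side by side, since Cpr49Ac rose in control discs by 4.78 ± 0.32 while Cpr49Af, Cpr49Ag and Cpr49Ah fell there by 1.12 ± 0.20, 0.49 ± 0.15 and 2.26 ± 0.14. Cpr49Ac and Cpr49Ah were also the genes of the family with the largest knockdown differences at 116 h in each direction. Cpr49Ae read 4.64, 4.80 and 4.43 in avl-RNAi discs of 92 h, against 3.89, 4.14 and 4.04 in control discs, and differed by 0.60 ± 0.10. Cpr49Aa, Cpr49Ab and Cpr49Ad were never called and stayed within 3.66 to 3.99, 4.20 to 4.52 and 3.97 to 4.39. Among the other genes inside the cluster CG8501, named after its values were seen, rose by 1.07 in control discs and by 2.21 between 116 and 168 h in avl-RNAi discs. The other measured neighbours there, CG13155, Or49a, CG30048 and CG30050, were not called over either interval. Between genotypes at 116 h CG13155 was called lower in avl-RNAi discs, at -0.17.

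The 64A cluster on arm 3L held 4 measured genes with 4 different courses. Cpr64Ac read 5.67, 5.61 and 5.78 in avl-RNAi discs of 92 h, against 5.72, 5.61 and 5.92 in control discs. By 116 h it read 5.77, 5.74 and 5.82, against 5.77, 5.60 and 5.56. At 168 h it read 10.54, 10.37 and 10.27. The 12 arrays of the younger discs spanned 5.56 to 5.92, and the rise after 116 h was 4.62 ± 0.088 (24.6-fold, adjusted p = 1.49e-12), with 4.75 ± 0.088 between avl-RNAi discs of 168 h and control discs of 116 h. Both values were called without each array in turn. Whether control discs of that age would show the rise was not tested. Cpr64Aa read 10.30, 10.87 and 10.60 in avl-RNAi discs of 116 h, against 8.98, 10.40 and 9.66 in those of 92 h, a rise of 0.91 ± 0.26 with overlapping arrays that was lost without replicate 2 of 116 h (adjusted p = 0.0552). It then read 9.28, 9.48 and 9.45 at 168 h, a fall of 1.18 ± 0.26, and at 116 h it did not differ by a called amount between genotypes (0.02 ± 0.26). Cpr64Ad read 6.16, 6.24 and 6.53 at 168 h, against 5.62, 5.53 and 5.63 at 116 h, and rose by 0.72 ± 0.097. Cpr64Ab was never called and lay between 5.27 and 5.77.

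**Figure D5:**
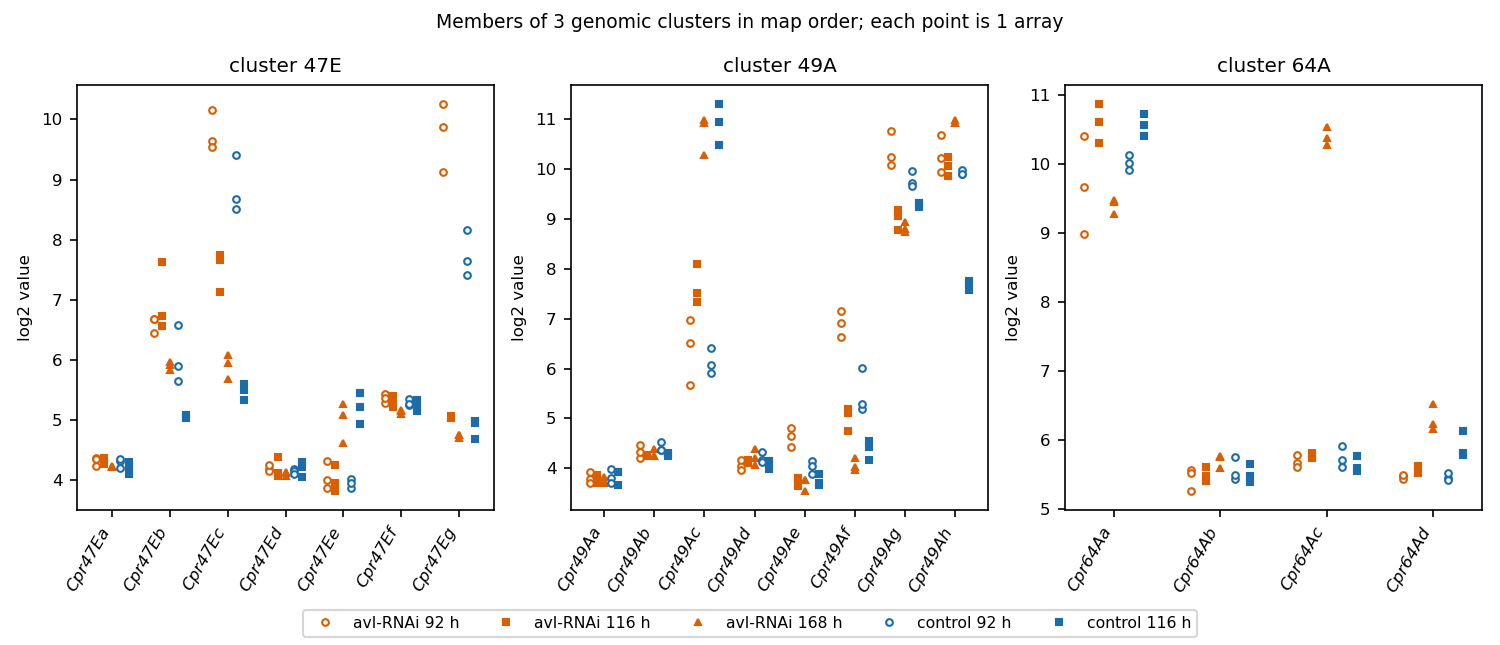
Log2 values of the CPR genes of clusters 47E, 49A and 64A in map order, 1 point per array, avl-RNAi in orange and control in blue, with open circles for 92 h, squares for 116 h and triangles for 168 h. Genes with large differences stand beside Cpr47Ed and Cpr49Aa, whose 15 arrays lie between 4.05 and 4.39 and between 3.66 and 3.99.

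The other 9 clusters held 1 to 2 called genes or none, beside 58.5% of all genes called in at least 1 comparison. In 65E, Cpr65Ec was called and Cpr65Ea and Cpr65Eb were not. In 97E, Cpr97Ea and Cpr97Eb ran in opposite directions with age in control discs, at 0.32 ± 0.091 and -1.09 ± 0.15, and Cpr97Ea lost that call without control replicate 1 or 3 of 92 h or 2 of 116 h (adjusted p up to 0.0798). In 65A, Cpr65Aw read 6.12, 6.38 and 5.89 in avl-RNAi discs of 92 h, against 5.11, 5.46 and 5.16 in control discs, a difference of 0.89 ± 0.15, and had fallen to 4.53, 4.53 and 4.46 by 168 h. The larval cuticle genes Lcp65Ac and Lcp65Ae, which lie in the same cluster and were named after their values were seen, were higher at 92 h too, by 2.60 and 1.56. Not called at 92 h were their measured neighbours there, Lcp65Af, at 1.17, and Lcp65Ad, Lcp65Aa, Acp65Aa and CG13297, at -0.09 to 0.03. Among the Cpr78C genes, Cpr78Ca fell by 0.29 ± 0.095 in control discs, a call lost without replicate 1 or 2 of 92 h or any 1 array of 116 h (adjusted p up to 0.162). Cpr78Cc, of the same cluster, was among the genes higher at 92 h.

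Small differences made up the rest. In 62B, Cpr62Bb fell by 0.26 ± 0.080 between 116 and 168 h. In 72E, Cpr72Ea rose by 0.40 ± 0.087 in that interval, and Cpr72Ec was -0.33 ± 0.085 between avl-RNAi discs of 116 h and control discs of 92 h. In 76B, Cpr76Bc rose by 0.26 ± 0.067 in avl-RNAi discs by 116 h, and Cpr76Bd was -0.28 ± 0.093 between avl-RNAi discs of 168 h and control discs of 116 h. The call of Cpr62Bb was lost without replicate 3 of 116 h or 2 or 3 of 168 h (adjusted p up to 0.118), and that of Cpr76Bd without any 1 array of 168 h or control replicate 1 (up to 0.177). Neither gene of 50C was called. Among genes outside clusters Cpr23B, chosen here after its values were seen, read 4.58, 4.60 and 4.50 in avl-RNAi discs of 116 h, against 4.25, 4.16 and 4.0 in control discs, a difference of 0.42 ± 0.064. Cpr67B, Cpr92A and Cpr92F, likewise named after their values were seen, had 1 call each, of -0.49 ± 0.15 with age in avl-RNAi discs for Cpr67B, and of -0.16 ± 0.056 and -0.15 ± 0.052 between avl-RNAi discs of 116 h and control discs of 92 h. The call of Cpr67B was lost without avl-RNAi replicate 3 of 116 h (adjusted p = 0.0671). Those of Cpr92A and Cpr92F were lost without control replicate 2 or 3 of 92 h or avl-RNAi replicate 1 of 116 h, and also without avl-RNAi replicate 2 of 116 h for Cpr92A (adjusted p up to 0.165) and replicate 3 for Cpr92F (up to 0.145).

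Replicates spread unevenly. The median SD over the 66 genes was 0.14 in avl-RNAi discs of 92 h, 0.13 at 116 h and 0.083 at 168 h, and 0.097 and 0.099 in control discs of 92 and 116 h. In avl-RNAi discs of 92 h, 8 genes spanned over 1 unit, and for 7 of them replicate 2 lay farthest from the median. Cpr65Av read 5.39, 7.44 and 5.41 there, and Cpr11B read 3.86, 7.12 and 3.76. Cpr11B also read 4.70, 5.91 and 6.97 in avl-RNAi discs of 116 h, against 3.87, 5.69 and 3.91 in control discs. Neither gene was called in any comparison. Leaving out Cpr11B, Cpr65Av and Cpr56F, which were picked out for this spread, the other 25 genes that were never called had no difference over 0.32 in size.

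Genes that act with CPR proteins in cuticle were counted for context. Of 49 measured genes of other cuticle protein families, 8 were higher and none lower at 92 h in avl-RNAi discs, 16.3% called, against 4.48% of all genes, and 9 were higher and 4 lower at 116 h, 26.5%, against 31.7%. Of 29 measured genes of chitin synthesis and remodelling (33 listed), 14 were higher and 3 lower at 116 h, 58.6%. The same shares of all genes at 116 h, 12.6% higher and 19.1% lower, apply to this list and those that follow. Cda5, which encodes a chitin deacetylase-like protein, was higher by 2.63 ± 0.17, and the chitinase gene Cht10 was lower by a difference of -1.37 ± 0.12. Of 19 measured genes of the apical matrix and of cuticle hardening (25 listed), 6 were higher and 3 lower, 47.4%, and Ddc, whose dopa decarboxylase makes the dopamine used in sclerotization, was higher by 3.31 ± 0.082. Of 24 measured ecdysone and moult genes (29 listed), 4 were higher and 8 lower at 116 h, 50%. The list joins regulators with ecdysone-inducible genes such as ImpE1, ImpE2 and ImpE3. It also holds Edg78E, Edg84A and Edg91, which are counted among the 49 genes of other cuticle protein families as well.

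Blimp-1, which encodes an ecdysone-induced repressor, read 5.12, 5.12 and 4.98 in avl-RNAi discs of 116 h, against 6.88, 7.55 and 8.45 in control discs, and 7.14, 7.45 and 6.52 at 168 h. That is a knockdown difference of -2.55 ± 0.30 at 116 h and a rise of 1.96 ± 0.30 after it, beside -3.26 ± 0.32 and 3.08 ± 0.32 for Cpr49Ac. The nuclear receptor gene ftz-f1, whose product follows the ecdysone pulse, read 8.43, 8.47 and 8.48 at 116 h in avl-RNAi discs. In control discs it read 6.76, 6.27 and 6.19, a difference of 2.05 ± 0.11, and in avl-RNAi discs of 168 h 7.63, 7.84 and 7.74. Cpr49Ah differed by 2.38 ± 0.14 at 116 h. After that age Cpr49Ah rose by 0.89 in avl-RNAi discs, while ftz-f1 read lower at 168 h. Blimp-1 and ftz-f1 are examples from the 24 measured ecdysone and moult genes, whose differences at 116 h ran from -5.51 to 3.88. These 24 genes, not all of them regulators, and the CPR genes were read from the same arrays. No relation between them was tested.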

How the data were processed

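Total RNA of wing discs was hybridised to 1-colour Affymetrix Drosophila arrays. The deposited values are log2 signals per probe set, already normalised by the authors. The log base was inferred from their range, and the normalisation method is not given in the sources used here. Partek and limma are named in the submitters' processing notes, without roles. Of 18952 probe sets, 13647 had 1 gene symbol, 402 several and 4903 none in the platform annotation. Symbols were updated through RefSeq's table (assembly Release 6 plus ISO1 MT), 13544 matched and 103 kept their name, and the probe set with the highest mean stood for each of 11982 genes. Levels were set against the array's median over genes only as a description.

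All 15 arrays were fitted with a mean per group in limma 3.58.1 (R 4.3.3, lmFit and eBayes), with Benjamini-Hochberg adjustment over all genes and calls at an adjusted p under 0.05. Precision is limited by having 3 arrays per group. The fit was tested on simulated data with known changes. Values are named for every CPR gene called and changed at least 2-fold, every gene of clusters 47E, 49A and 64A, and every called gene of another cluster. The genes, lists and rules were chosen with earlier results of these data known. Same-numbered replicates were checked for shared deviations. Of 30 pairs of groups and numbers, 9 correlated over 0.1 (range -0.41 to 0.50), and the numbers were not taken to pair samples. Arrays with different numbers were not compared, so this check cannot decide whether the numbers do so. Alternatives were other scalings, filters, thresholds, probe set rules, covariates, a replicate block and leaving out arrays. Sequences were not used here.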

Additional observations from a re-analysis of the deposited data

Results flagged for a closer look

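For 18 CPR genes the knockdown difference changed between 92 and 116 h, by limma's test of the genotype by age term (adjusted p from 8.58e-07 to 0.0483, 3 arrays per group). The term, as the difference of 116 h minus that of 92 h in log2 units, was negative for 13 genes. It was -3.52 for Cpr49Ac, -2.77 for Cpr78E, -2.29 for Cpr65Ec, -1.83 for Cpr12A, -1.52 for Cpr31A and -1.31 for Cpr47Ee, all lower in avl-RNAi discs at 116 h. It was -1.83 for Cpr47Eg, -1.19 for Cpr97Eb, -0.87 for Cpr49Ag and -0.61 for Cpr49Ae, all higher in avl-RNAi discs at 92 h. It was -1.41 for Cpr67Fa2, -0.55 for Cpr97Ea and -0.51 for Cpr35B. The 5 positive terms were 2.02 for Cpr49Ah, 1.35 for Cpr47Eb, 1.12 for Cpr47Ec, 0.46 for Cpr23B and 0.34 for Cpr76Bc. The terms of Cpr35B, Cpr47Ec and Cpr76Bc were not called without 10, 7 and 5 single arrays, with adjusted p of up to 0.11, 0.0706 and 0.0579.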

How the results depend on the processing

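No difference of the 45 CPR genes followed changed direction to a called opposite under any alternative. In brackets after a count is the share of all genes called under the same setting. At an adjusted p under 0.01, 6 CPR genes (1.88%) were called at 92 h, against 12 at 0.05, 10 (17%) between avl-RNAi discs of 168 h and control discs of 116 h, against 18, and 13 (26.9%) between avl-RNAi discs of 116 h and control discs of 92 h, against 20. With gut, muscle and fat body means as covariates, 2 (1%) were called at 92 h, 8 (9.21%) at 116 h, 14 (17.4%) with age in avl-RNAi discs, 9 (4.34%) with age in control discs, 2 (0.401%) between 116 and 168 h and 6 (8.05%) between avl-RNAi discs of 168 h and control discs of 116 h. Without both control arrays that stood apart in gut markers, 6 (2.14%) were called at 92 h. Centring arrays on their medians moved the median of all genes to -0.11 at both ages and -0.19 between avl-RNAi discs of 116 h and control discs of 92 h, where 31 (52.6%) were called, 6 higher and 25 lower. It gave 11 higher and 4 lower (9.16%) at 92 h, and 6 and 13 (29.8%) between avl-RNAi discs of 168 h and control discs of 116 h. Leaving out 1 array gave 6 to 11 calls at 92 h, the lowest without control replicate 1 (2.4%) or 3 (2.42%), and 16 to 18 at 116 h. It gave 16 to 20 for the genotype by age term, 23 to 27 with age in avl-RNAi discs, 19 to 21 in control discs and 18 to 23 after 116 h. Between avl-RNAi discs of 168 h and control discs of 116 h it gave 11 to 15, the lowest without control replicate 1 (21.6%), and between avl-RNAi discs of 116 h and control discs of 92 h 14 to 19. The labels number the replicates without saying what same-numbered arrays share. With the numbers as a replicate block, 9 (4.07%) were called at 92 h and 20 (31.1%) at 116 h. Under the block the genotype by age term was called for 18 (17.3%). With age it gave 26 (35%) in avl-RNAi discs and 21 (26.6%) in control discs. The block gave 24 (26.5%) after 116 h, 17 (24.9%) between avl-RNAi discs of 168 h and control discs of 116 h, and 18 (35%) between avl-RNAi discs of 116 h and control discs of 92 h. Of 156 calls, 117 held without each array in turn. Apart from the construction of the stricter threshold and the smaller groups, the cause was not tested.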

Other observations

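Some CPR genes were seen only together with a neighbour. The probe set shared by Cpr65Ax1 and Cpr65Ax2 read 10.50, 9.84 and 10.44 in avl-RNAi discs of 92 h, against 8.19, 8.76 and 8.0 in control discs. At 116 h it read 4.79, 5.10 and 4.76, against 4.77, 4.67 and 4.77, and at 168 h 4.47, 4.61 and 4.31. The genotypes were thus apart at 92 h and overlapped at 116 h, and which of the 2 genes the signal came from was not tested. The probe set shared by Cpr67Fa1 and Cpr67Fa2 read 8.74, 7.78 and 7.62 in avl-RNAi discs of 92 h, against 6.75, 7.44 and 6.82 in control discs. At 116 h it read 6.12, 6.54 and 6.57, against 6.73, 6.52 and 6.74. These values entered no test.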
